A study of Mus musculus with 3 samples.

Results

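The 10 genes described here make up a core set for osteoblasts and the mineralization of bone matrix. They are the transcription factors Runx2 and Sp7, the phosphatase Alpl, the matrix proteins Ibsp, Bglap, Bglap2, Spp1 and Dmp1, the peptidase Phex and the membrane protein Ifitm5. They were chosen by symbol, and are 10 of the 30406 gene IDs shared by the 3 libraries. The cells came from intervertebral discs of untreated mice at postnatal day 30 with the genotype shh-cre:R26R-tdTomato. In these animals Cre driven from the Shh locus turns on the red reporter tdTomato in cells that expressed Shh and in their descendants. Lumbar, thoracic and caudal discs were cut out through the bony endplates and digested with collagenase, and cells were sorted for tdTomato before 3′ single-cell libraries were made. The libraries also held many blood cells, with 2567, 3936 and 4022 cells assigned to neutrophils. No class below was gated on tdTomato, and whether its cells descend from Shh-expressing cells was not tested. Each library pooled cells from litter-matched animals, so a library is the replicate, and the 3 libraries form 1 group with no second genotype, age or treatment. The comparisons below are therefore between cell classes of the same libraries.

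Bone matrix is laid down by osteoblasts, which arise from mesenchymal progenitors under Runx2 and then Sp7. Alkaline phosphatase, encoded by Alpl, removes pyrophosphate, an inhibitor of mineral growth, and releases phosphate. Ibsp, Spp1 and Dmp1 encode acidic secreted phosphoproteins that bind mineral, Bglap and Bglap2 encode osteocalcin, and Dmp1 and Phex are best known from osteocytes, the cells that become buried in the matrix. Ifitm5 is a membrane protein of mineralizing osteoblasts. Hypertrophic chondrocytes, which mineralize cartilage at growth plates and endplates, use several of the same genes.

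In the GENCODE annotation of mm10, all 10 are protein-coding genes. Dmp1 (chromosome 5, 104202613 to 104214102), Ibsp (104299171 to 104311469) and Spp1 (104435118 to 104441050) lie in that order on the plus strand of chromosome 5. Bglap (chromosome 3, 88383501 to 88384464) and Bglap2 (88377736 to 88378699) are neighbours on the minus strand, with the related gene Bglap3 (88368616 to 88372743) beside them. Of the 351 different stretches of 90 bases in Bglap transcripts, 60.4% also occur in Bglap2, so the split of reads between these 2 genes is uncertain and their values are best read together. None of these Bglap stretches occurs in Bglap3, but 30 of the 382 Bglap2 stretches (7.85%) do.

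Upstream sequence is shown for Bglap, Ibsp and Spp1, 3 secreted matrix genes whose levels differ in distinct ways across the classes below. RefSeq promoters on GRCm38.p6 were matched for 8 of the 10 genes (not for Bglap2 and Sp7), and the 250 bases before the annotated start are printed, with capitals marking ACCACA, the core of the motif bound by RUNX proteins, where it occurs on either strand (reverse complement TGTGGT).
Bglap, chr3:88384467-88384716, minus strand: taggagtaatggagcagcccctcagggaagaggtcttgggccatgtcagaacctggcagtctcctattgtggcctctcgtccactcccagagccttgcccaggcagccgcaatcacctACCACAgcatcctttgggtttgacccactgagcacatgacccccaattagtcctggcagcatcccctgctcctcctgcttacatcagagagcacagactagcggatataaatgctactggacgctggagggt
Spp1, chr5:104434861-104435110, plus strand: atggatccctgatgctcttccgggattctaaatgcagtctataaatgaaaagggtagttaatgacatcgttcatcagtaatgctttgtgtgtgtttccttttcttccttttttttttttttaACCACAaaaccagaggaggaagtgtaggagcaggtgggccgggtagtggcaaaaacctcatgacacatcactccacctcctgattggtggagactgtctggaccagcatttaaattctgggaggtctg
Ibsp, chr5:104299037-104299286, plus strand: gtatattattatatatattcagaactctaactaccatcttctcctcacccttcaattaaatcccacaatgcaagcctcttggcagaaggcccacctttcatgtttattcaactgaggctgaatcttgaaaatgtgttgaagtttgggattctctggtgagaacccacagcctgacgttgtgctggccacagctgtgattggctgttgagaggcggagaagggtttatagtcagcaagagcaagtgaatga
The motif begins 132 bases before the start in Bglap and 128 bases before it in Spp1, and these letters do not occur in the Ibsp window. The 8 matched genes have 11 such windows, of which 4 hold the motif (1 each for Bglap, Spp1, Dmp1 and Runx2), against 14.0% of 32851 windows of the same length over all genes. A match of letters is a description of the sequence and not evidence of binding.

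Cells were assigned to classes by fixed markers that include none of the 10 genes. An osteoblast-gated cell showed at least 3 of 8 markers (among them Col1a1, Dlx5, Omd and Slc36a2), and marrow stromal cells, which surround marrow vessels and support blood formation, at least 3 of 8 (among them Cxcl12, Lepr and Adipoq). Chondrocytes showed at least 5 of 8 cartilage markers (among them Col2a1, Matn3 and Snorc), and nucleus pulposus cells, the notochord-derived cells of the disc core, at least 3 of Krt8, Krt18, Krt19 and T. Libraries 1, 2 and 3 held 22, 188 and 536 osteoblast-gated cells, 16, 31 and 69 marrow stromal cells, 837, 302 and 49 chondrocytes and 497, 149 and 26 nucleus pulposus cells. B lineage cells of the marrow numbered 798, 2318 and 2993 and were taken as the background class for all 10 genes. Counts were summed per class and library and are given as CPM, a gene's UMIs divided by all UMIs of the sum on the usual CPM scale. The library totals were 64695292, 145925353 and 137188648 UMIs.

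Some sums stood apart, and the values are given with the results they touch. The osteoblast-gated sum of library 1 held only 22 cells, its summed chondrocyte markers were 3720 CPM against 59.7 and 78.8 CPM in libraries 2 and 3, and 1 cell supplied 45.4% of its Bglap UMIs and 56.6% of its Dmp1 UMIs. In the nucleus pulposus sum of library 3, summed osteoblast markers reached 16462 CPM against 572 and 310 CPM, and 1 cell carried every Runx2, Sp7, Alpl, Phex and Ifitm5 UMI and 99.8% of the Ibsp UMIs. Libraries 2 and 3 shared 224 barcodes, 184 of them with a depth that differed more than 20 times, and 3 and 7 osteoblast-gated cells of these libraries carried a barcode seen elsewhere. The osteoblast gate was also met by cells assigned to the classes compared below, 276, 131 and 19 of the chondrocytes, 3, 17 and 39 of the marrow stromal cells and 29, 19 and 1 of the nucleus pulposus cells of libraries 1, 2 and 3. It was met as well by 210 cells assigned to neutrophils, the most numerous class, and by 96 that stayed unassigned.

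Both transcription factors were higher in osteoblast-gated cells than in chondrocytes, and only Sp7 was higher than in marrow stromal cells. Runx2, the first regulator of the lineage, was at 365, 218 and 188 CPM in osteoblast-gated cells of libraries 1, 2 and 3, and at 276, 268 and 291 CPM in marrow stromal cells. These groups overlapped, with a log2 fold change of 0.40 (SE 0.54, edgeR adjusted p = 0.684). Chondrocytes held 47.2, 28.5 and 12.3 CPM of Runx2, all below every osteoblast value (log2 fold change 2.97, SE 0.56, adjusted p = 1.11e-04). Sp7, which acts after Runx2, was at 291, 230 and 242 CPM in osteoblast-gated cells, at 126, 125 and 112 CPM in marrow stromal cells and at 34.2, 29.5 and 14.3 CPM in chondrocytes. The 3 classes did not overlap for Sp7, and the log2 fold change of osteoblast-gated over marrow stromal sums was 1.82 (SE 0.59, adjusted p = 0.0254). That call was lost with DESeq2 (adjusted p = 0.373), without the replicate block (0.144) and without library 2 (0.148).

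In each library a blood class held more Runx2 than any of these 4 classes. Plasmacytoid dendritic cells, which make type I interferon, held 992, 529 and 362 CPM in 97.7, 92.0 and 87.8% of 43, 87 and 41 cells, against 2.42, 2.41 and 4.67 CPM in the B lineage (log2 fold change 7.25, SE 0.67, adjusted p = 9.27e-10), the only one of the 10 called higher there, where 9.86% of all genes were. Sp7, Alpl, Dmp1, Phex and Ifitm5 had 0 UMIs in that class in all 3 libraries, which allows a UMI in up to 6.98, 3.45 and 7.32% of its cells (3 counts of the total). Of all Runx2 UMIs in the cells kept, 32.8% were in osteoblast-gated cells, 34.5% in cells of the neutrophil class and 7.45% in plasmacytoid dendritic cells, whereas for Sp7 the osteoblast-gated share was 64.7%.

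**Figure D1:**
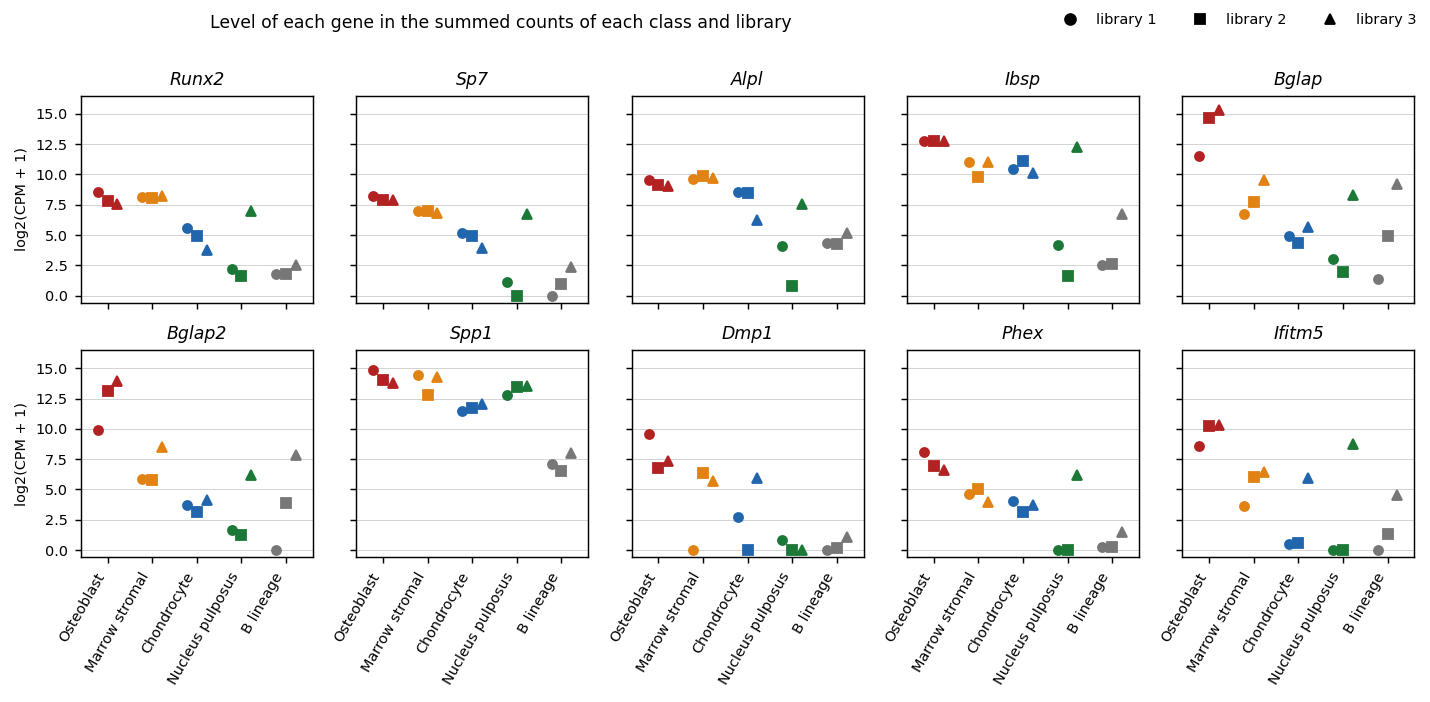
Level of each gene as log2(CPM + 1) in the summed counts of 5 cell classes, with 1 point per library (shape) and class (colour). Bglap and Bglap2 are higher in every osteoblast-gated sum than in any sum of the other 4 classes, Spp1 is high in 4 classes, and the nucleus pulposus point of library 3 stands above those of libraries 1 and 2 for Runx2, Sp7, Alpl, Ibsp, Bglap, Bglap2, Phex and Ifitm5.

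Alpl set osteoblast-gated cells apart from nucleus pulposus cells, but not from marrow stromal cells or, by the test, from chondrocytes. Its level was 758, 557 and 537 CPM in osteoblast-gated cells and 793, 912 and 843 CPM in marrow stromal cells, where every library's value was above that of the osteoblast-gated cells. The fitted log2 fold change between these classes was 0.09 (SE 0.83, adjusted p = 0.990). The fit scales the sums by TMM, which the CPM values do not, so the signs can differ. Chondrocytes of libraries 1 and 2 held 381 and 359 CPM, and those of library 3, with 49 cells, 75.6 CPM. Osteoblast-gated values lay above all chondrocyte values, but the difference did not pass the test (log2 fold change 1.09, SE 0.83, adjusted p = 0.364). With each cell thinned to 2000 UMIs, Alpl was found in 61.9, 64.7 and 62.6% of osteoblast-gated cells and in 46.7, 65.5 and 63.2% of marrow stromal cells.

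Ibsp, the bone sialoprotein, varied least between libraries of the matrix genes in osteoblast-gated cells. Its level there was 6726, 6905 and 7080 CPM (mean 6904 ± 177, SD, n = 3), and it was found in 100, 99.5 and 99.6% of the cells. Marrow stromal cells held 2046, 905 and 2077 CPM and chondrocytes 1402, 2259 and 1113 CPM, with no overlap with the osteoblast-gated sums. Neither difference passed the test, at a log2 fold change of 2.77 (SE 1.41, adjusted p = 0.170) for marrow stromal cells and 1.97 (SE 1.35, adjusted p = 0.304) for chondrocytes. The first was called when cells meeting at least 2 non-blood gates were left out (3.62, adjusted p = 0.0352). In nucleus pulposus cells Ibsp was at 17.4 and 2.10 CPM in libraries 1 and 2 and at 5016 CPM in library 3, the value carried by 1 cell. The log2 fold change of osteoblast-gated over nucleus pulposus sums was 4.01 (SE 1.57, adjusted p = 0.0446), and the call was lost without library 1 (adjusted p = 0.118) and without library 2 (0.157). Without cells that met at least 2 non-blood gates, nucleus pulposus Ibsp was 8.52, 2.07 and 14.0 CPM and that log2 fold change was 10.33.

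Osteocalcin RNA was far higher in osteoblast-gated sums than in the other classes and differed widely between libraries. Bglap was at 2917, 26462 and 39829 CPM and Bglap2 at 959, 8951 and 16020 CPM, so library 1 was the lowest for both. Bglap UMIs outnumbered Bglap2 UMIs 3.04, 2.96 and 2.49 to 1. In chondrocytes Bglap was at 28.9, 18.8 and 49.0 CPM, and in marrow stromal cells at 103, 215 and 756 CPM, where 1 cell held 68.5% of the UMIs of library 3. Bglap was higher in osteoblast-gated than in chondrocyte sums by a log2 fold change of 8.07 (SE 1.47, adjusted p = 6.67e-05) and than in marrow stromal sums by 6.95 (SE 1.47, adjusted p = 6.64e-04). Bglap2 gave 7.95 (SE 1.29, adjusted p = 1.30e-05) and 7.25 (SE 1.39, adjusted p = 2.02e-04). Within osteoblast-gated cells of library 3, Bglap per 10000 UMIs was 1.84 at the 10th percentile, 178 at the median and 967 at the 90th, while Ibsp was 12.9, 45.5 and 166 at the same points. Of all Bglap UMIs in the cells kept, 76.6% were in osteoblast-gated cells and 14.0% in cells of the neutrophil class.

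Spp1, osteopontin, was found in most nucleus pulposus cells. It was at 29535, 16645 and 14443 CPM in osteoblast-gated cells, 21869, 7085 and 20370 CPM in marrow stromal cells, 7211, 10925 and 12179 CPM in nucleus pulposus cells and 2840, 3292 and 4278 CPM in chondrocytes. It was found in 90.1, 96.0 and 88.5% of nucleus pulposus cells against 17.2, 12.0 and 17.1% of B lineage cells, whose median depths were 2832, 3629 and 2665 UMIs against 3046, 9227 and 2097 UMIs. Thinned to 2000 UMIs per cell, the shares were 88.4, 95.7 and 100% against 7.23, 5.25 and 7.47%, with 353, 139 and 14 nucleus pulposus cells deep enough. Median mitochondrial shares of nucleus pulposus cells were 0.0646, 2.78 and 0.0897%, lower in libraries 1 and 3, against 5.90, 3.54 and 3.00% in osteoblast-gated cells. Their part in the Spp1 level, and in every other comparison with nucleus pulposus sums, was not tested. Nucleus pulposus sums exceeded B lineage sums by a log2 fold change of 5.81 (SE 1.14, adjusted p = 5.45e-05). The difference between osteoblast-gated and nucleus pulposus sums did not pass the test (log2 fold change 1.29, SE 0.94, adjusted p = 0.300), although the values did not overlap. Against chondrocytes Spp1 was higher by 2.65 (SE 0.98, adjusted p = 0.0401), a call lost in 6 of 19 alternatives, among them without library 1 (adjusted p = 0.0695) and without library 3 (0.0966).

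Dmp1, Phex and Ifitm5 were lower in chondrocytes and marrow stromal cells than in osteoblast-gated cells. Dmp1 was at 774, 111 and 162 CPM in osteoblast-gated cells, and in 50.0, 38.8 and 49.3% of them. Marrow stromal cells held 0, 78.7 and 52.0 CPM, and chondrocytes 5.63, 0 and 61.3 CPM, where the last value came from 1 cell. Dmp1 was higher in osteoblast-gated than in marrow stromal sums by a log2 fold change of 3.38 (SE 0.89, adjusted p = 6.10e-03), a call lost with DESeq2 (0.202) and without library 3 (0.0505), and than in chondrocyte sums by 5.33 (SE 0.81, adjusted p = 9.40e-06). Nucleus pulposus cells had 2 Dmp1 UMIs in all, against 2349 in osteoblast-gated cells. The pooled ratio was 313 per UMI of depth, with a 95% exact counting interval of 86.6 to 2588. That interval pools the libraries and covers counting error only, not the spread between libraries. By library, Dmp1 in nucleus pulposus cells was at 0.827, 0 and 0 CPM. Over the 19 alternative runs the log2 fold change of osteoblast-gated over nucleus pulposus sums was 7.90 to 12.78. Phex, which is mutated in X-linked hypophosphataemia, was at 279, 120 and 97.1 CPM in osteoblast-gated cells, 23.0, 32.2 and 14.2 CPM in marrow stromal cells and 15.9, 8.05 and 12.3 CPM in chondrocytes. Its log2 fold change was 3.71 (SE 0.82, adjusted p = 1.18e-03, a call lost with DESeq2 at 0.0673) over marrow stromal and 3.66 (SE 0.61, adjusted p = 2.60e-05) over chondrocyte sums. Ifitm5 was at 377, 1179 and 1259 CPM in osteoblast-gated cells, 11.5, 64.4 and 85.1 CPM in marrow stromal cells, and 4 and 2 UMIs in all in chondrocytes of libraries 1 and 2. In nucleus pulposus cells Phex and Ifitm5 had 0 UMIs in libraries 1 and 2, and in library 3, where 1 cell held them all, Phex was at 73.3 CPM and Ifitm5 at 419 CPM, above the osteoblast-gated Ifitm5 value of library 1. The log2 fold changes over nucleus pulposus sums were 6.23 for Phex (SE 0.93, adjusted p = 5.09e-06) and 6.23 for Ifitm5 (SE 0.95, adjusted p = 6.08e-06). The 29 chondrocyte UMIs of Ifitm5 in library 3 came from 1 cell. The Ifitm5 log2 fold change was 5.91 (SE 1.08, adjusted p = 1.43e-04) over marrow stromal and 8.20 (SE 1.00, adjusted p = 2.15e-07) over chondrocyte sums.

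**Figure D2:**
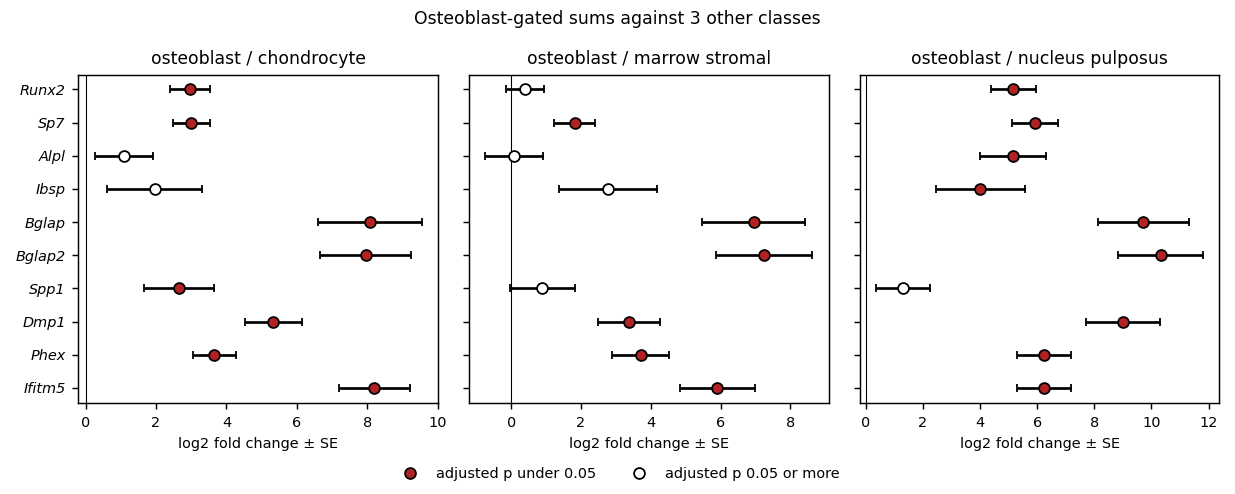
Log2 fold change of each gene in osteoblast-gated sums over chondrocyte, marrow stromal and nucleus pulposus sums, with bars of 1 SE (edgeR quasi-likelihood, 38 sums). Filled points passed an adjusted p of 0.05, and open points mark Alpl and Ibsp over chondrocytes, Runx2, Alpl, Ibsp and Spp1 over marrow stromal cells, and Spp1 over nucleus pulposus cells.

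Across the 3 tests, 8 of the 10 genes were higher in osteoblast-gated than in chondrocyte sums, where 12.2% of 12353 genes tested were called higher. The count was 6 of 10 over marrow stromal sums, against 8.9% of all genes, and 9 of 10 over nucleus pulposus sums, against 19.1%. None of the 10 was lower, where 17.4, 13.4 and 17.7% of all genes were. Median log2 fold changes of the 10 genes were 3.33, 3.07 and 6.08, against -0.08, -0.14 and 0.07 over all genes tested. All 10 genes passed the filter on low counts, which they did through sums in which they are high, and they were known as osteoblast genes when they were chosen. In these sums, fewer cells with a transcript and less of it per cell cannot be told apart. Without the replicate block, the calls of Spp1 over chondrocytes, of Sp7, Bglap and Ifitm5 over marrow stromal sums, and of Ibsp and Ifitm5 over nucleus pulposus sums were lost, with adjusted p of 0.0618, 0.144, 0.0526, 0.0769, 0.215 and 0.0827.

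The level in B lineage sums differed between libraries and genes. In B lineage sums Bglap was at 1.54, 29.1 and 599 CPM, in 0.88, 4.40 and 22.5% of cells, and Ibsp at 4.84 CPM in library 1, 5.003 CPM in library 2 and 103 CPM in library 3. Relative to the osteoblast-gated level of the same library, 7 of the 10 genes, Sp7, Ibsp, Bglap, Bglap2, Spp1, Phex and Ifitm5, were at 1.40 to 1.80% in the B lineage of library 3. Runx2 (2.49%, 95% exact counting interval 2.00 to 3.07) and Alpl (6.55%, 6.06 to 7.07) were above that range, and Dmp1 (0.721%, 0.452 to 1.09) was below it. Alpl was also the highest of the 10 in libraries 1 and 2, at 2.61 and 3.22%, where Ibsp was at 0.0721 and 0.0725%. It was found in 8.02, 9.10 and 10.6% of B lineage cells, and whether these Alpl UMIs are background was not tested. These intervals and floors cover counting error only.

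**Figure D3:**
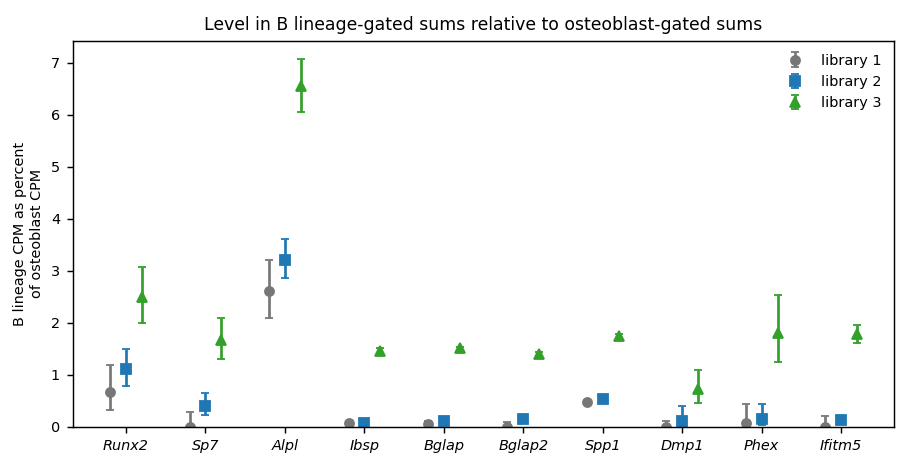
CPM in B lineage sums as a percentage of the CPM in osteoblast-gated sums of the same library, for each gene, with 95% exact counting intervals. Library 3 lies above the other libraries throughout, and Alpl reaches 2.61, 3.22 and 6.55%, above the other 9 genes in each library.

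Against this floor all 10 genes were higher in osteoblast-gated sums than in B lineage sums, where 27.8% of all genes were called higher. In marrow stromal sums 8 were higher (background 26.4%), and Bglap (log2 fold change 1.91, adjusted p = 0.211) and Bglap2 (1.46, adjusted p = 0.320) did not pass. In chondrocytes 7 were higher (background 31%), namely Runx2, Sp7, Alpl, Ibsp, Spp1, Dmp1 and Phex. In nucleus pulposus sums 3 were higher (background 27.3%), Spp1, Ibsp and Ifitm5. That count was 1 when cells meeting at least 2 non-blood gates were left out and 1 without library 3. Macrophage sums (background 25%) and osteoclast sums (background 19.5%) had none called higher by edgeR and none by DESeq2. Osteoclasts numbered 1, 26 and 51 cells, so their sums came from libraries 2 and 3 only. Bglap2 was lower in osteoclast sums by edgeR (log2 fold change -4.36, adjusted p = 0.0449), where 21.7% of all genes were lower. At an unadjusted p under 0.05, Runx2 was higher in macrophages and no gene in osteoclasts.

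Other genes of bone and mineral were read from fixed lists, against a background of all genes tested of 12.2% higher and 17.4% lower than in chondrocytes, 8.9 and 13.4% for marrow stromal cells, and 19.1 and 17.7% for nucleus pulposus cells. Of 11 bone matrix genes, 8 were higher and 1 lower in osteoblast-gated than in chondrocyte sums, 9 were higher and 0 lower than in marrow stromal sums, and 11 were higher than in nucleus pulposus sums. Bglap3, which lies beside Bglap2, had log2 fold changes of 7.11, 7.15 and 9.26 in these comparisons. Cthrc1, a secreted collagen-associated protein, was higher by 5.31 over marrow stromal and 7.71 over nucleus pulposus sums, and Col1a2, a chain of type I collagen, by 3.89 over chondrocytes. Plod2, a collagen lysyl hydroxylase, was lower than in chondrocytes by a log2 fold change of -1.11. Among 9 osteogenic regulators tested of 10, 5 were higher and 2 lower than in chondrocytes (Dlx3 6.57, Dlx6 4.32, Msx1 -2.86 and Lef1 -3.10). Over marrow stromal sums 4 were higher, led by Dlx3 (3.29) and Twist1 (2.93), and over nucleus pulposus sums 6, led by Dlx6 (6.78) and Dlx3 (6.58).

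The list of phosphate, pyrophosphate and mineral regulators was split. Of its 9 tested genes, 2 were higher and 3 lower than in chondrocytes, 3 higher and 2 lower than in marrow stromal cells, and 5 higher and 3 lower than in nucleus pulposus cells (background 12.2 and 17.4%, 8.9 and 13.4%, and 19.1 and 17.7%). Enpp6, a choline phosphodiesterase, was higher in each comparison, at 45.1, 115 and 116 CPM in osteoblast-gated cells and 0.1, 0.3 and 4.1 CPM in chondrocytes (log2 fold changes 8.05, 3.51 and 7.42 over chondrocytes, marrow stromal and nucleus pulposus cells). Smpd3, a sphingomyelinase needed for bone mineralization, was higher by 1.92, 5.87 and 4.88. Mgp, which inhibits calcification, was lower in each, at 36.9, 30.0 and 2.9 CPM against 5747, 6061 and 6231 CPM in chondrocytes (log2 fold changes -8.51, -4.52 and -6.17). Slc20a1, a phosphate transporter, was lower than in chondrocytes (-4.38) and nucleus pulposus cells (-2.70), and its relative Slc20a2 was lower than in marrow stromal cells (-3.36).

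Osteocyte genes were thinly represented, since Mepe, Sost and Fgf23 did not pass the filter for the class comparisons. Of the 5 tested, 3 were higher in each comparison. Ptprz1 had log2 fold changes of 7.50, 2.59 and 5.61, Irx5 of 2.94 over chondrocytes, and Dkk1, an inhibitor of Wnt signalling, of 3.88 over marrow stromal and 7.69 over nucleus pulposus cells. Fbln7 was lower than in chondrocytes (-4.65). Among 9 receptors and osteoclast signals, 6 were higher and 1 lower than in chondrocytes, 2 higher and 3 lower than in marrow stromal cells (background 8.9 and 13.4%), and 6 higher and 2 lower than in nucleus pulposus cells. Lrp4, a receptor for sclerostin, was higher by 5.37 over chondrocytes and 4.49 over nucleus pulposus cells, and Vdr, the vitamin D receptor, by 3.51 and 5.69. Tnfrsf11b, the decoy receptor for the osteoclast signal RANKL, was lower than in chondrocytes (-2.09) and nucleus pulposus cells (-3.08), and Lrp6 was lower than in nucleus pulposus cells (-0.78). Over marrow stromal sums Fgfr1 (1.58) and Lrp5 (1.39) were higher. Tnfsf11, which encodes RANKL, was at 36.9, 6.0 and 4.8 CPM in osteoblast-gated cells against 115, 175 and 112 CPM in marrow stromal cells (log2 fold change -3.36, SE 0.78, adjusted p = 2.30e-03), and Csf1, the other main osteoclast growth factor, was lower by a log2 fold change of -2.58.

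Of 4 hypertrophic cartilage genes, Col10a1 (-9.52) and Ihh (-7.58) were lower and the collagenase Mmp13 (6.80) was higher than in chondrocytes. Panx3 was higher than in marrow stromal (3.52) and nucleus pulposus cells (3.76), and Mmp13 than in nucleus pulposus cells (5.68). Of 5 immediate early and dissociation genes, 4 were lower than in chondrocytes (background 17.4%), led by Atf3 (-6.38) and Fos (-3.24), and Atf3 was lower than in nucleus pulposus cells (-4.81). None of the 5 was called against marrow stromal cells. Atf3 was at 86.0, 7.9 and 1.1 CPM in osteoblast-gated cells and at 982, 1767 and 219 CPM in chondrocytes, so handling-related genes differed together with the comparison, and their part in the results was not tested.

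Over the 38 class and library sums, the genes whose level was most like the mean of the 10 genes included Slc36a2 (Pearson r = 0.92), Vdr (0.89), Bmp3 (0.86), Col22a1 (0.86), Dtna (0.86), Tbx2 (0.86), Dlx5 (0.85), Shc2 (0.85) and Tcf7 (0.85). Slc36a2 and Dlx5 are markers of the osteoblast gate, and the sums share libraries and differ in depth, so these values are a description. Col22a1, a collagen of tissue junctions, was at a mean of 518 CPM in osteoblast-gated and 45.1 CPM in marrow stromal sums. Vdr was at 172 and 169 CPM in the same classes.

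Osteoblast-gated cells were then staged by co-detection. Each cell was thinned to 2000 UMIs and called Dmp1-detected with any Dmp1 UMI, Bglap-only with Bglap but no Dmp1, and Sp7-only with Sp7 and neither of the others. Of 21, 184 and 532 cells deep enough, 6, 23 and 93 were Dmp1-detected (28.6, 12.5 and 17.5%), 7, 129 and 377 were Bglap-only (33.3, 70.1 and 70.9%), 3, 11 and 27 were Sp7-only (14.3, 5.98 and 5.08%), and 5, 21 and 35 had none of the 3. In these thinned counts the Bglap-only cells were the largest group of libraries 2 and 3 (unthinned, 49.3% of library 3 were Dmp1-detected and 46.6% Bglap-only), while in library 1 the groups were of 3 to 7 cells. The names describe detection only, since with all UMIs counted 34.1 and 41.6% of Bglap-only cells of libraries 2 and 3 had a Dmp1 UMI. The Bglap-only rule did not use Sp7. In the thinned counts 42 of 129 and 143 of 377 such cells of libraries 2 and 3 also had Sp7. Of the Dmp1-detected cells in library 3, 84 also had Bglap in the thinned counts (31 with and 53 without Sp7) and 9 did not. In the B lineage of library 3, thinned in the same way, 273 of 2263 cells had Bglap without Sp7 or Dmp1, and 5 had Dmp1. B lineage levels there were 1.51% of the osteoblast-gated level for Bglap and 0.721% for Dmp1. The source of these UMIs was not tested. The 5 unstaged cells of library 1 carried chondrocyte markers at 19753 CPM, against 56.2 to 139 CPM in its staged groups.

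Cells with Dmp1 differed from Bglap-only cells in few genes. Of 5954 genes tested, 4 were called, all higher (0.0672%), and they were Dmp1, which defines the group, and 3 of the 9 tested genes of the mineral regulation list. Enpp1, which makes extracellular pyrophosphate, was at 26.0 and 68.1 CPM in Dmp1-detected cells of libraries 2 and 3 against 6.7 and 6.3 CPM in Bglap-only cells (log2 fold change 2.77, SE 0.44, adjusted p = 8.23e-03). In library 1 it went the other way, at 14.6 against 32.1 CPM, from 1 and 3 UMIs. Ank, a transporter that exports pyrophosphate and ATP, was at 292, 65.0 and 100.5 CPM against 42.7, 36.0 and 26.1 CPM, higher in 3 of 3 libraries (1.53, SE 0.26, adjusted p = 0.0158). Fam20c, the kinase that phosphorylates secreted proteins including Dmp1, was at 204, 72.4 and 132 CPM against 42.7, 33.9 and 48.7 CPM, also higher in 3 of 3 (1.31, SE 0.19, adjusted p = 3.67e-03). Median depth was close, at 19152 and 18999 UMIs per Dmp1-detected cell and 21249 and 20161 UMIs per Bglap-only cell in libraries 2 and 3, and chondrocyte markers summed to 33.4 to 139 CPM in these groups of all libraries.

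These 3 calls were not stable. Enpp1, Ank and Fam20c stayed called without library 1 (edgeR adjusted p = 1.69e-05, 1.20e-03 and 7.71e-04). Without library 2 only Fam20c lost the call (0.271). All 3 lost it without library 3 (adjusted p of 1 each), without the replicate block (0.356, 1.00 and 0.851 for Enpp1, Ank and Fam20c), with DESeq2 (1.00, 0.554 and 0.0541) and with non-blood gates given precedence (1.00, 0.206 and 0.645). Enpp1 also lost it with 1 marker more per gate (0.253), without shared barcodes (0.156) and with no doublet removal (0.149), where Ank lost it too (0.0757). The direction was the same in every alternative run.

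The other 9 genes of the set were not called between these groups. Phex was at 817, 258 and 113 CPM in Dmp1-detected and 118, 103 and 97.9 CPM in Bglap-only cells, higher in 3 of 3 libraries but not past the test (log2 fold change 0.99, SE 0.28, adjusted p = 0.678). Ibsp was at 13169, 7108 and 7624 CPM against 4766, 5263 and 5382 CPM, again higher in each library and not called (0.89, SE 0.40, adjusted p = 1.00). Bglap2 was at 1006, 6594 and 13748 CPM against 1763, 10743 and 18502 CPM, lower in each library (-0.66, SE 0.18, adjusted p = 0.623) and called lower without library 1 (-0.64, adjusted p = 0.0249), and since Bglap defines the second group its level there is not independent of the rule. Runx2, Sp7 and Ifitm5 differed by log2 fold changes of 0.12, -0.18 and -0.01.

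**Figure D4:**
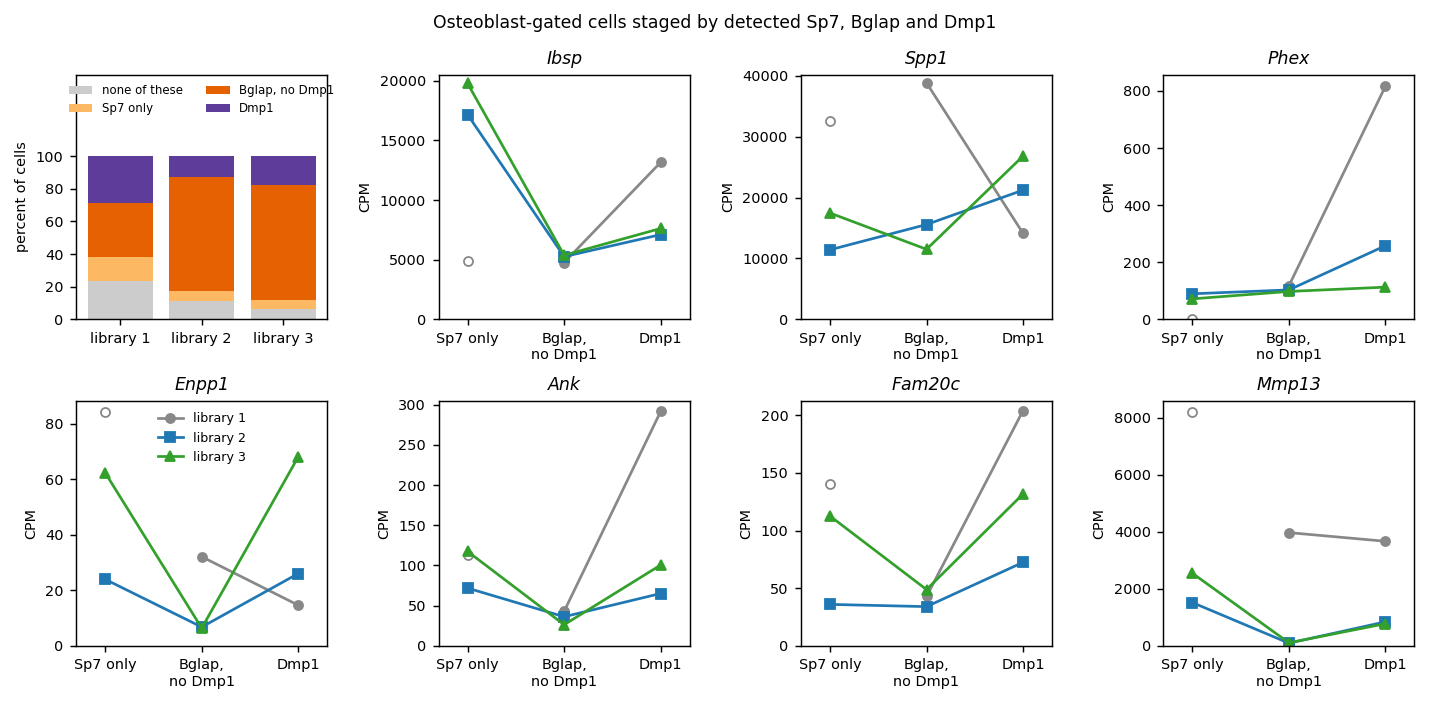
Left, percent of osteoblast-gated cells in each detection group by library; other panels, CPM of 7 genes in each group, with lines joining the groups of 1 library and an open symbol for a sum under 5 cells. Ank and Fam20c rise from Bglap-only to Dmp1-detected cells in all 3 libraries, Enpp1 in libraries 2 and 3, and Ibsp is highest in Sp7-only cells of libraries 2 and 3.

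Bglap-only and Sp7-only cells differed in 100 of 5954 genes (1.68%), 39 higher (0.655%) and 61 lower in Bglap-only cells. The sum of 3 Sp7-only cells of library 1 was below the minimum of 5 cells and did not enter the fit, so libraries 2 and 3 carry this comparison. Bglap defines the groups, and Bglap2 was higher with it (log2 fold change 7.12, SE 0.30, adjusted p = 4.95e-12), a value that is not independent of the rule because the 2 transcripts share sequence. Bglap3 shared no 90-base stretch with Bglap but shared 7.85% of those of Bglap2, so its reads are not fully separate from this pair. It was at 478 and 376 CPM in Bglap-only cells of libraries 2 and 3 but had 0 and 1 UMI in Sp7-only cells (8.27, SE 0.49, adjusted p = 1.27e-09). Col1a2 (1.22), Cthrc1 (1.497), Kazald1 (1.04) and the transcription factor Twist1 (1.45) were also higher, with adjusted p between 6.38e-03 and 0.0217.

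Of the 4 hypertrophic cartilage genes, 2 were tested between these groups, Mmp13 and Panx3, and both were lower in Bglap-only cells. Mmp13 was at 1512 and 2539 CPM in Sp7-only cells and 88.0 and 102 CPM in Bglap-only cells of libraries 2 and 3 (log2 fold change -2.94, SE 0.68, adjusted p = 0.0284), Panx3 at 185 and 218 CPM against 31.8 and 36.0 CPM (-2.19, SE 0.31, adjusted p = 7.14e-04), and Ank, from the mineral regulation list, at 71.7 and 117 CPM against 36.0 and 26.1 CPM (-1.41, SE 0.36, adjusted p = 0.0487). The cartilage gene Col10a1 had 0 UMIs in Sp7-only cells, and chondrocyte markers there summed to 41.8 and 55.1 CPM, close to the 47.7 and 37.0 CPM of Bglap-only cells. Ibsp was at 17168 and 19779 CPM in Sp7-only cells, more than in Bglap-only cells (5263 and 5382 CPM), but missed the test with all libraries (-1.36, SE 0.44, adjusted p = 0.162). It passed without library 1 (-1.39, adjusted p = 6.67e-08), without shared barcodes (9.56e-05) and with stages from 1000 UMIs (3.98e-04) or unthinned counts (5.94e-11). It missed without the replicate block (0.513), with DESeq2 (0.562) and with non-blood gates first (0.659). It also missed with 1 marker more per gate (0.305), Bglap at 3 UMIs (0.216) and no doublet removal (0.186). Without library 2 or 3 the log2 fold change was -1.17 or -1.23. Bglap-only cells were deeper, with medians of 21249 and 20161 UMIs against 15947 and 13972 UMIs, marrow stromal markers were 114 and 395 CPM in Sp7-only against 131 and 86.5 CPM in Bglap-only cells, and osteoblast markers were 64744 and 56376 CPM against 108353 and 115266 CPM. The part of these values in the result was not tested. The count of called genes fell to 3 without library 3 and to 27 without library 2, and rose to 311 without library 1.

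Chondrocytes were finally split at 10 Col10a1 UMIs per 10000, a mark of hypertrophy, in a comparison added after the data had been seen. The Col10a1-high cells numbered 63, 11 and 3, of 837, 302 and 49, so only libraries 1 and 2 had a sum of at least 10 cells. In these cells Spp1 was at 17130 and 22870 CPM against 1648 and 2487 CPM in the Col10a1-low cells of libraries 1 and 2, Ibsp at 8117 and 7567 against 842 and 2041 CPM, and Alpl at 1168 and 1822 against 315 and 299 CPM. In library 2, 1 cell held 80.3% of the Spp1, 65.1% of the Ibsp and 46.3% of the Alpl UMIs of the Col10a1-high group. None of the 3 passed the test, with log2 fold changes of 3.50 (SE 1.05, adjusted p = 0.171), 2.90 (SE 1.46, adjusted p = 0.615) and 2.65 (SE 0.92, adjusted p = 0.318). Phex was at 160 and 109 CPM, in 17 of 63 and 4 of 11 cells, against 3.8 and 3.9 CPM, and was called higher (5.31, SE 0.77, adjusted p = 1.38e-04). Dmp1 was called as well (8.16, SE 1.41, adjusted p = 1.99e-03), on 49 UMIs in 3 cells of library 1 and none in library 2.

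These were 2 of the 10 genes, where 0.477% of 11940 genes tested were called higher, and both calls were lost without library 1 (adjusted p of 0.358 for Phex and 1.00 for Dmp1). Other list genes called were Ihh (3.73), the transcription factor Mef2c (3.14), Irx5 (5.69), Sost (8.10), which encodes sclerostin, Tnfsf11 (5.10), the parathyroid hormone receptor Pth1r (2.59) and Fam20c (1.59), all higher, and Lef1 (-3.15), lower. Their edgeR adjusted p ran from 1.07e-07 (Irx5) to 0.0388 (Fam20c) and 0.0477 (Tnfsf11). These calls rest on Col10a1-high sums of libraries 1 and 2 only. Sost passed the filter on low counts in this fit but not in that of the class comparisons. Bglap was at 91.7 and 129 CPM in Col10a1-high and 23.7 and 14.3 CPM in Col10a1-low cells of libraries 1 and 2, and was not called (2.72, SE 1.29, adjusted p = 0.572). In library 2, 1 cell held 94.7% of these Col10a1-high Bglap UMIs. Bglap2 was at 25.8 and 20.4 against 10.8 and 7.27 CPM, and Ifitm5 had 3 and 1 UMIs against 1 and 1, neither of them called. Osteoblast-gated sums exceeded Col10a1-high sums in 4 of the 10 genes (background 7.52%), Bglap (5.83, adjusted p = 0.0100), Bglap2 (6.28, adjusted p = 3.02e-03), Dmp1 (2.49, adjusted p = 0.0308) and Ifitm5 (6.24, adjusted p = 1.35e-03). Spp1 (0.11, SE 1.03), Phex (0.03, SE 0.66), Ibsp (-0.50, SE 1.42) and Alpl (-1.28, SE 0.91) did not pass, nor did Runx2 (1.95, SE 0.70, adjusted p = 0.0556) and Sp7 (2.01, SE 0.73, adjusted p = 0.0603).

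**Figure D5:**
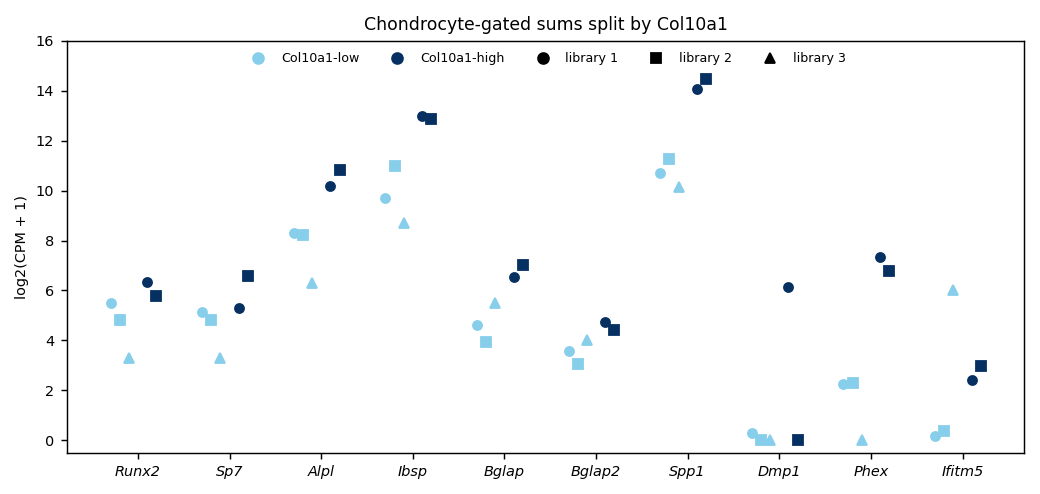
Level of each gene as log2(CPM + 1) in chondrocyte sums with low (light) and high (dark) Col10a1, with 1 point per library that had at least 10 cells. In libraries 1 and 2 the dark points lie above the light points of the same library for 9 of the 10 genes, whereas Dmp1 does so in library 1 only.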

How the data were processed

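Single cells from mouse discs were measured with 10x Genomics 3′ v3 libraries. The deposited matrices hold whole UMI counts per gene and barcode, made by the authors with Cell Ranger on mm10. The submitters' processing notes give version 3.0.2, whereas the file headers give 3.0.1 for library 1 and 6.0.0 for libraries 2 and 3. Library 1 lists 31053 genes, and libraries 2 and 3 list 32285. Library 1 thus differs from the others in processing, and the part of this in its lower Bglap and Bglap2 levels was not tested. The 10 genes, gates and lists were chosen with earlier results of these data known.

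Barcodes needed at least 500 genes and at most 15% mitochondrial UMIs, and doublets called by Scrublet (scanpy 1.11.5; 1.42, 4.09 and 3.51%) were removed, which kept 75.9, 87.8 and 90.6% of barcodes. Non-blood classes needed 0 Ptprc UMIs; a cell meeting several gates went to the largest share of markers, and ties stayed unassigned. Sums of at least 10 cells per class and library (5 for stages) were tested with edgeR 4.0.16 quasi-likelihood (TMM, library as a block, Benjamini-Hochberg over all genes; 38 sums and 23 residual degrees of freedom for classes, 11 sums and 5 for stages). Sums of 1 library share its animals: over 198 pairs of sums of 1 library from 12 classes, their deviations from class means correlated with a median of 0.355, and 188 pairs were above 0.1. The p-values measure the spread left between sums after the class and library terms, shared over all groups of a fit. Each group had sums from at most 3 libraries. Sp7-only and osteoclast sums came from libraries 2 and 3 only, and Col10a1-high sums from libraries 1 and 2 only. Named genes were the 10 and, per list and osteoblast comparison, the 2 largest and 2 smallest changes called; for stages and the Col10a1 split, every list gene called.

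On data simulated for the 3 class comparisons, with 11009 genes, 69, 44 and 60% of genes changed by log2 2 and 98% of those changed by 3 were recovered, for chondrocyte, marrow stromal and nucleus pulposus sums in that order, with 8, 5 and 6 false calls. The simulated counts had the same spread for every gene, the same mean profile in every class and no library effect. Only genes above a minimum level were changed. These shares do not carry over to genes whose spread between sums is larger. Alternatives were DESeq2 1.42.0, its size factors, other filters and gates, and leaving out each library. One gene among those most like the set is not reported here.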

Additional observations from a re-analysis of the deposited data

How the results depend on the processing

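Counts of called genes depended on which library was left out, and the cause was not tested. Leaving out each library in turn gave 1670 to 3985 genes for osteoblast-gated over chondrocyte sums (3657 with all), 1000 to 3238 over marrow stromal sums (2760) and 2182 to 3995 over nucleus pulposus sums (4554). It gave 2 to 17 for Dmp1-detected over Bglap-only cells (4), 3 to 311 for Bglap-only over Sp7-only cells (100), 8 to 33 for the Col10a1 split (67) and 1 to 3 genes of the set above the B lineage in nucleus pulposus sums (3). Without the replicate block the counts were 2918, 2129 and 3808 for the class comparisons, 1 and 11 for the stages and 44 for the Col10a1 split. For Dmp1-detected over Bglap-only cells the count was 8 with 1 marker more per gate, 22 with Bglap at 3 UMIs or more, 1 with DESeq2, 1 with non-blood gates first, 20 with stages from 1000 UMIs and 23 with unthinned counts. For Bglap-only over Sp7-only cells these were 160 (Bglap at 3 UMIs), 53 (DESeq2), 16 (non-blood gates first), 65 (1000 UMIs) and 384 (unthinned). Above the B lineage, macrophage sums had 1 gene of the set with multiply gated cells left out, with DESeq2's size factors, a preset doublet rate, a 5% mitochondrial limit, no doublet removal or no filter, and 2 with no limit on Ptprc. Nucleus pulposus sums had 1 with multiply gated cells left out and 5 with DESeq2, and osteoclast sums 1 with no limit on Ptprc. Over marrow stromal sums the split of higher and lower genes was 1100 and 1660, but 1370 and 1247 with no filter and 1633 and 1045 with multiply gated cells left out. The sign turned for Alpl over marrow stromal sums with DESeq2 (-0.0201) and with its size factors (-0.0114), and for Bglap2 between stages with unthinned counts (0.0587), none of them called. Mean stage shares moved to 46.0% Dmp1-detected without thinning, 15.5% Sp7-only with Bglap at 3 UMIs, and 22.9 and 23.6% with none of the 3 genes, at 1000 UMIs and with non-blood gates first. Library 1 had the fewest osteoblast-gated cells, 22, with 3 to 7 per stage at 2000 UMIs.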
